A study of Homo sapiens with 10 samples.

Results

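Transcript levels of 31 genes of homologous recombination and the Fanconi pathway were described in 10 poly(A) RNA libraries of 2 human liver tumour cell lines. The genes were taken by symbol from a list of repair genes. The rule that names them uses no measured value, but this list and those set beside it were chosen with earlier results of these data known. All 31 were among the 19215 gene symbols counted, and all 31 were among the 13349 genes that passed the filter on low counts. SK-Hep1 and HepG2 are liver tumour lines, and HepG2 keeps many hepatocyte functions. The 4 groups were SK-Hep1 miR-17 TuD (2 libraries), SK-Hep1 NC TuD (2 libraries), HepG2 miR-17 TuD (3 libraries) and HepG2 NC TuD (3 libraries). TuD stands for tough decoy, an RNA hairpin that holds a microRNA and keeps it from its targets. The miR-17 TuD is directed against the miR-17 family, and the NC TuD is its negative control. All 4 groups carried a lentiviral vector, given at a multiplicity of infection of 5 with 10 µg/mL polybrene over 48 h, and all were kept in 1 µg/mL puromycin for 2 weeks in medium with 10% serum before the resistant colonies were pooled. Each group is therefore 1 pooled stable population. The effect of a decoy and the separate history of its population cannot be told apart. The labels do not say that replicates were separate cultures, so p-values measure only the spread between these libraries, which may be technical.

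Homologous recombination mends broken DNA in S and G2 phase by copying the sister chromatid. Ends are trimmed by the MRN complex (RAD50 and NBN are subunits) with the RBBP8 product CtIP, EXO1 and the BLM helicase, under the kinases ATM, ATR and CHK1. BRCA1 with BARD1, joined through PALB2 to BRCA2, prepares the trimmed end for strand exchange, in which RAD51C, RAD51D, XRCC2, XRCC3 and the RAD54 translocases assist. At crosslinks between DNA strands the Fanconi core complex, whose ligase subunit is FANCL, attaches ubiquitin to the FANCI-FANCD2 pair, and USP1 removes it. Many of these genes are transcribed mainly in cycling cells, through E2F factors.

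The decoy addresses a family of microRNAs that share 1 seed, the bases that pair with target transcripts. The 6 mature sequences are printed because the seed defines which members could be direct targets. They are RefSeq sequences (GRCh38.p14), written 5′ to 3′ with seed bases 2 to 8 in capitals.
hsa-miR-17-5p: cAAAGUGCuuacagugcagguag
hsa-miR-20a-5p: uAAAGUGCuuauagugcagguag
hsa-miR-20b-5p: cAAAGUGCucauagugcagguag
hsa-miR-93-5p: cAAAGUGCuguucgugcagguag
hsa-miR-106a-5p: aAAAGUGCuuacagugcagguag
hsa-miR-106b-5p: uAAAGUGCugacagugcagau
The seed was identical in all 6. A 7mer-m8 site, GCACTTT, pairs with it in full, and a 7mer-A1 site, CACTTTA, pairs with bases 2 to 7 and ends in A. An 8mer site holds both. The longest annotated 3′ untranslated region of each gene in GENCODE 29 (GRCh38) was searched on the transcribed strand.

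A site of any of the 3 kinds was found in 8 of 31 members (25.8%), against 31.2% of the 13195 tested genes with such a region. No member had an 8mer, which 5.32% of tested genes had. ATM, BLM, BRCA1, FANCC, XRCC2 and RAD51D held 7mer-m8 sites, FANCD2 and RAD54B held a 7mer-A1 site alone, and RAD51D held 3 sites of the first kind and 1 of the second. The region searched in RAD51D is 8745 bases long, and its use in these cells was not examined. BRCA2 and USP1, the members called in the decoy comparisons, had none of the 3 kinds in the region searched.

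The libraries held 12884225 to 15076431 counts assigned to genes. Members had 72 to 2390 counts in a library, or 5.53 to 162.7 CPM (counts scaled to library size and by TMM factors), where 1 count was worth 0.0656 to 0.0795 CPM. The summed level of 10 hepatocyte markers was 74.3 to 79.7 CPM in SK-Hep1 miR-17 TuD and 84.7 to 105 CPM in SK-Hep1 NC TuD, against 48191 to 50639.8 CPM in HepG2 miR-17 TuD and 55299 to 57492 CPM in HepG2 NC TuD. SK-Hep1 thus lacked the hepatocyte programme that HepG2 had. The 6 mesenchymal markers summed to 14697 to 15036 CPM in SK-Hep1 NC TuD, against 14750 to 16083 CPM in HepG2 NC TuD. In the miR-17 TuD groups they summed to 15892 to 16362 CPM in SK-Hep1 and 15492 to 15814 CPM in HepG2. The 5 epithelial markers summed to 5228 to 5344 CPM in SK-Hep1 NC TuD, against 2732 to 2828 CPM in HepG2 NC TuD. Between the NC TuD groups edgeR called 3 of 5 tested higher in SK-Hep1 and 2 lower in each list. The median log2 fold change of SK-Hep1 over HepG2 was 1.78 for the mesenchymal and 0.66 for the epithelial markers tested. In each HepG2 library 1 or 2 of the 6 mesenchymal markers had 0 counts. Of the 5 epithelial markers, 1 had 0 counts in both SK-Hep1 miR-17 TuD libraries and in SK-Hep1 NC TuD replicate 1. The sums therefore do not describe the single markers. Of 8 endothelial markers, KDR, ERG and PECAM1 had 0 counts in every SK-Hep1 library, which allows up to 3 counts or 0.224 CPM per library, and the 8 together reached at most 1.18 CPM there. The kit does not record strand. Exons of XRCC3 (45.3% of bases), FANCL (26.6%), FANCA (22.4%) and RAD54L (18%) overlap those of a protein-coding gene on the opposite strand in GENCODE 29, and those of RAD54B and RAD50 a second annotated gene on the same strand (63.3% and 90.6%). Their counts may hold reads of the overlapping gene or lack reads set aside as ambiguous.

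Per kilobase of exon, the members spanned more than an order of magnitude, and USP1, the deubiquitinase of FANCD2, stood at or near the top. USP1 had 34.9 ± 1.55 CPM per kb in SK-Hep1 miR-17 TuD, 35.4 ± 0.372 in SK-Hep1 NC TuD, 24.3 ± 0.437 in HepG2 miR-17 TuD and 27.0 ± 0.951 in HepG2 NC TuD (mean ± SD, n = 2 in SK-Hep1 and n = 3 in HepG2). FANCI, a subunit of the clamp that the core complex modifies, was next in SK-Hep1, with 25.2 ± 0.614 and 27.9 ± 0.837 CPM per kb in its miR-17 TuD and NC TuD groups. In HepG2 it followed FANCA, the core complex subunit, which had 25.3 ± 0.794 and 25.7 ± 0.347 CPM per kb in the same arms and differed from USP1 there by less than the sum of their SDs. In SK-Hep1 FANCA ranked 15th. At the low end stood RAD51D, FANCM and BRCA2 in both lines, and FANCB in HepG2. BRCA2, which prepares DNA ends for strand exchange, had 1.76 ± 0.129 and 2.29 ± 0.00261 CPM per kb in SK-Hep1 miR-17 TuD and NC TuD, and 3.43 ± 0.298 and 3.31 ± 0.210 in HepG2 miR-17 TuD and NC TuD. FANCM, the translocase that anchors the core complex, had 1.99 ± 0.312 CPM per kb in SK-Hep1 miR-17 TuD, which differed from BRCA2 there by less than the sum of their SDs, and RAD51D had 2.50 ± 0.0316. Exon lengths are unions over all annotated transcripts, so a gene with a long unused exon, such as the extended 3′ region of RAD51D, is understated.

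**Figure D1:**
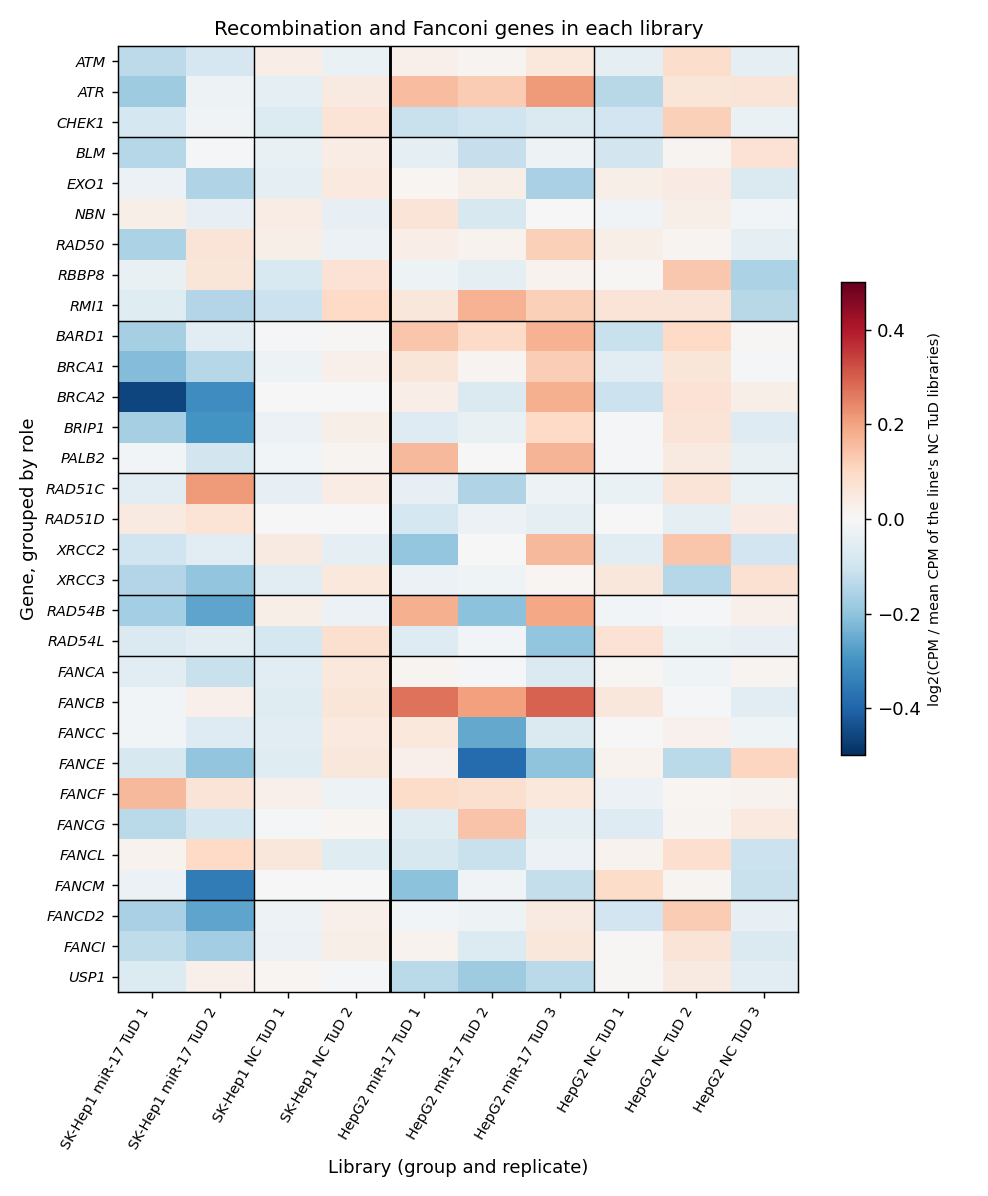
Each row is 1 member, grouped by role, and each column 1 library. Colour is the log2 ratio of its CPM to the mean of the NC TuD libraries of the same line. The blue block of the SK-Hep1 miR-17 TuD columns is deepest for BRCA2, and USP1 is lower in all 3 HepG2 miR-17 TuD columns.

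In SK-Hep1 the decoy population had less BRCA2 RNA, and most other members lay slightly below the control. BRCA2 had 20.0 and 22.2 CPM in miR-17 TuD, against 27.5 and 27.5 CPM in NC TuD. Both miR-17 TuD libraries were below both controls. The log2 fold change was -0.38 ± 0.10 (SE, n = 2 per arm), with adjusted p = 0.0323 by edgeR's quasi-likelihood test with Benjamini-Hochberg adjustment over all 13349 genes. BRCA2 was the 1 member called lower (adjusted p below 0.05), and none was called higher, whereas 116 genes (0.869% of those tested) were called in all, 27 (0.202%) lower and 89 (0.667%) higher. At an unadjusted p below 0.05 edgeR had 7 members lower and none higher, DESeq2 5 and none, and limma on the deposited log2 matrix 4 and none. The share of all genes at that unadjusted cutoff was not computed, here or below, so such counts do not show an excess. The call of BRCA2 was lost without any 1 of the 4 libraries (-0.46 to -0.31, adjusted p from 0.0525 to 0.542), with DESeq2 (adjusted p = 0.13), with limma on the deposited matrix (0.245) and with a replicate block (0.104). Over all genes, limma on that matrix also called 116, but with 49 higher and 67 lower. Since these are bulk RNA samples, fewer cells of a kind and less RNA per cell cannot be told apart.

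The rest of the BRCA group stood on the same side without passing the test. BRCA1, the ubiquitin ligase that starts the group's assembly, had 102 and 107 CPM in SK-Hep1 miR-17 TuD, against 116 and 121 CPM in NC TuD. BRIP1, a helicase bound to BRCA1, had 52.4 and 47.8 CPM in miR-17 TuD, against 57.6 and 59.9 CPM in NC TuD. In both genes the arms did not overlap, with log2 fold changes of -0.18 ± 0.06 (adjusted p = 0.15) and -0.23 ± 0.07 (adjusted p = 0.133) by edgeR, and both were called when the fit held the SK-Hep1 libraries alone (adjusted p = 0.0362 and 0.0452). BARD1, the partner of BRCA1, had 52.0 and 56.1 CPM in miR-17 TuD, against 57.9 and 58.6 CPM in NC TuD. PALB2, the bridge to BRCA2, had 18.4 and 17.4 CPM in miR-17 TuD, against 18.3 and 18.7 CPM in NC TuD. BARD1 was lower in both decoy libraries, while the arms of PALB2 overlapped.

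Among the Fanconi genes, the substrate pair stood lower in the SK-Hep1 decoy population and the core complex was mixed. FANCD2 had 47.4 and 44.2 CPM in miR-17 TuD, against 52.1 and 54.0 CPM in NC TuD, and FANCI had 133 and 128 CPM, against 141 and 148 CPM. Neither gene's arms overlapped, and neither passed (-0.21 ± 0.07, adjusted p = 0.224; -0.15 ± 0.05, adjusted p = 0.288). USP1, which acts on that pair, had 144 and 153 CPM in miR-17 TuD, against 152 and 149.6 CPM in NC TuD, with overlapping arms. The 7 core complex genes and FANCM ranged from -0.18 to 0.11 on the log2 scale. FANCE, FANCG and FANCM had both decoy libraries below both controls, and FANCF, a small adaptor subunit, had both above, with 22.5 and 21.1 CPM in miR-17 TuD, against 20.5 and 19.8 CPM in NC TuD. FANCA, FANCB, FANCC and FANCL overlapped.

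Of the genes that assist strand exchange, XRCC3 and RAD54B were the lowest in SK-Hep1. XRCC3, a partner of RAD51C, had 42.3 and 40.8 CPM in miR-17 TuD, against 45.1 and 48.4 CPM in NC TuD, a log2 fold change of -0.17 ± 0.08. The translocase RAD54B had 25.9 and 24.3 CPM in miR-17 TuD, against 29.7 and 28.6 CPM in NC TuD, a log2 fold change of -0.22 ± 0.10. Each was lower in both decoy libraries and had adjusted p = 0.507. RAD51D had 25.2 and 25.7 CPM in miR-17 TuD, against 24.5 and 24.4 CPM in NC TuD, and so was higher in both, at 0.06 ± 0.09. RAD51C, XRCC2 and RAD54L lay between -0.08 and 0.09. The kinases ATM, ATR and CHEK1 lay between -0.11 and -0.05, and the end-processing genes between -0.11 and 0.01, with none called.

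Counted over the list, 25 of 31 members had a log2 fold change below 0 in SK-Hep1, against 52% of all genes tested, with a median of -0.08 against -0.01. The number below 0 was 22 to 27 across the alternative settings. The arms did not overlap for 13 members that were lower (background 21.9% of genes) and 2 that were higher (background 18.4%), and they overlapped for 16. Summed over the members, the level was 1543 to 1567 CPM in miR-17 TuD, against 1635 to 1679.9 CPM in NC TuD. Genes of DNA replication and mitosis stood lower in the same libraries. Of 44, 4 were called lower and none higher, 43 had a log2 fold change below 0, and the median was -0.10. DESeq2 called 2 lower and limma none, neither called any higher, and at an unadjusted p below 0.05 edgeR had 20 lower and 1 higher, DESeq2 14 and 1, and limma 12 and none. No share over all genes stands beside these unadjusted counts. The replicate block ended all 4 calls (adjusted p from 0.0801 to 0.252). Their summed level was 9636 to 9639 CPM in miR-17 TuD, against 10181 to 10571 CPM in NC TuD. The 4 called were GINS1, a subunit of the replicative helicase (-0.28 ± 0.06), CENPF, a kinetochore protein gene (-0.20 ± 0.05), the proliferation marker MKI67 (-0.17 ± 0.04) and the spindle checkpoint kinase gene BUB1B (-0.22 ± 0.06). The summed hepatocyte markers given above were also lower in the SK-Hep1 decoy libraries, at a trace of their HepG2 level. Of the 10, edgeR called 4 lower and 1 higher, DESeq2 5 and none, and limma 4 and 1. Their median log2 fold change by edgeR was -1.44. In replicates 1 and 2 of SK-Hep1 miR-17 TuD, 5 and 2 of the 10 had 0 counts, against 1 in each NC TuD library. The sum fell by less than that median, with 74.3 to 79.7 CPM in miR-17 TuD against 84.7 to 105 CPM in NC TuD. The median therefore describes single markers, some of them without counts, and not the summed level. The mesenchymal markers summed to 15892 to 16362 CPM in miR-17 TuD, against 14697 to 15036 CPM in NC TuD, with none of 5 tested called by edgeR, DESeq2 or limma (1 higher and 1 lower at an unadjusted p below 0.05 by edgeR). The part of these lists in the members' result was not tested. The calls of MKI67 (-0.19 to -0.15) and BUB1B (-0.24 to -0.21) were lost without any 1 of the 4 libraries, that of CENPF (-0.26 to -0.14) without the first miR-17 TuD or the second NC TuD library, and that of GINS1 (-0.34 to -0.23) without the second library of either arm.

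The other companion lists had no call in SK-Hep1 by edgeR, DESeq2 or limma. Other homologous recombination genes had 28 tested and a median of -0.05, other Fanconi and crosslink genes 19 and -0.03, checkpoint genes 16 and -0.06, BRCA1-A and end-protection genes 11 and -0.04, end joining genes 12 and -0.05, and E2F and RB family genes 17 and -0.02. At an unadjusted p below 0.05 edgeR had 2, 0, 3, 2, 1 and 2 of them, in that order. PCNA, the replication clamp, was at -0.15 ± 0.04 (adjusted p = 0.107) and the transcription factor gene E2F1 at 0.11 ± 0.07 (0.729). TGFBR2, a long-known target of the family, was higher by 0.60 ± 0.05 (adjusted p = 1.39e-13), and CDKN1A, encoding the cell cycle inhibitor p21, was at 0.16 ± 0.04 (0.0516). CDKN1A was called higher with RLE scaling (adjusted p = 0.019), library size scaling (0.0453), no filter (0.0389), DESeq2 (0.0166) or the SK-Hep1 libraries alone (0.000249), and PCNA was called lower with the SK-Hep1 libraries alone (0.0104).

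**Figure D2:**
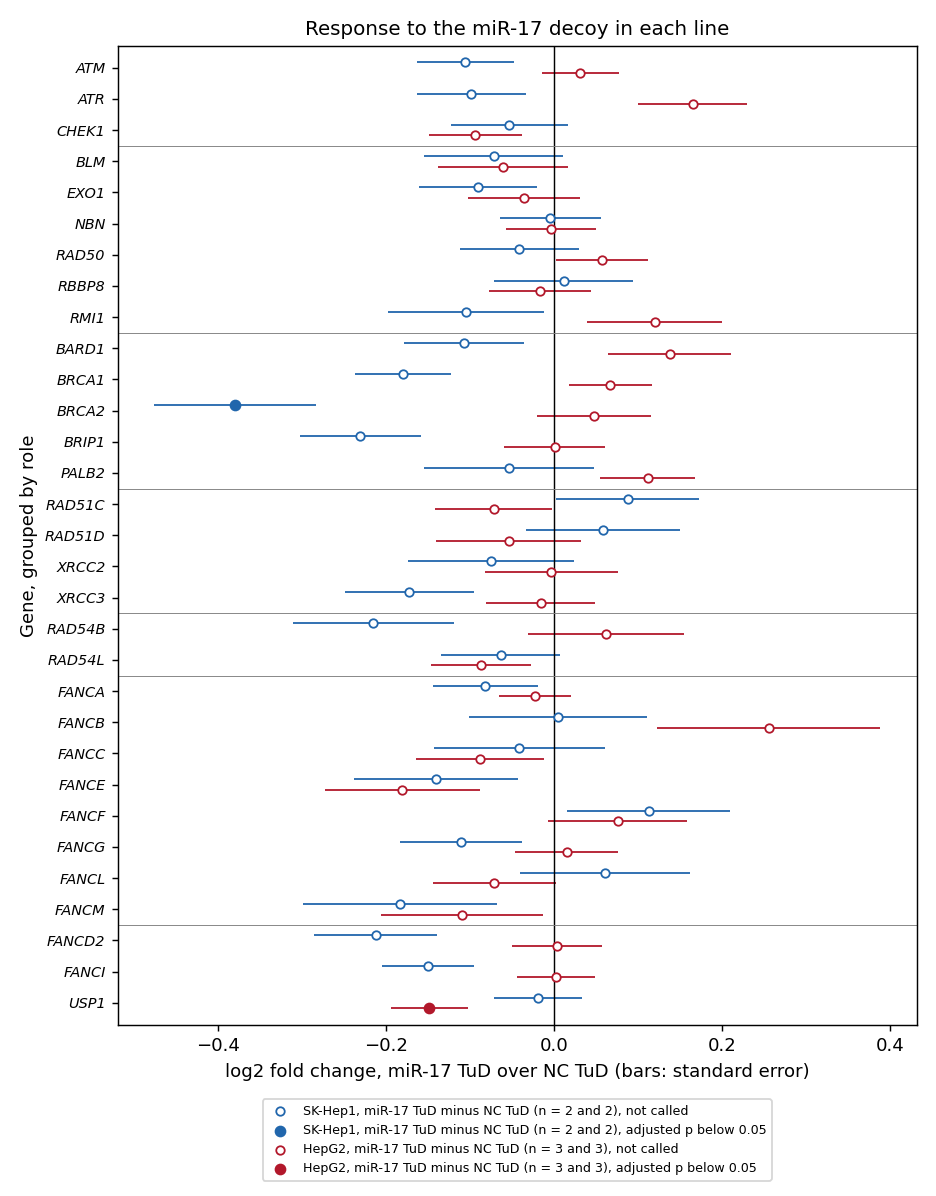
Points are log2 fold changes of miR-17 TuD over NC TuD with standard errors, SK-Hep1 in blue above HepG2 in red for each gene, and filled points passed adjusted p below 0.05. BRCA2 in SK-Hep1 (-0.38) and USP1 in HepG2 (-0.15) are the filled points, and the blue points lie left of 0 for 25 of 31 genes.

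In HepG2 the member that changed was USP1. USP1 had 105, 101 and 105 CPM in miR-17 TuD, against 115, 119 and 110.5 CPM in NC TuD. All 3 decoy libraries were below all 3 controls. The log2 fold change was -0.15 ± 0.05 (SE, n = 3 per arm, edgeR adjusted p = 0.0145). It was the 1 member called lower and none was called higher, although 19.3% of all tested genes were called in this comparison, 8.58% lower and 10.7% higher. At an unadjusted p below 0.05 edgeR and DESeq2 each had 1 member higher and 1 lower, and limma on the deposited matrix called 1 higher, FANCB, and none lower. The call of USP1 was lost without the second miR-17 TuD library or either of the first 2 NC TuD libraries (-0.14 to -0.13, adjusted p from 0.0547 to 0.0692), with library size scaling (0.061), with a replicate block (0.0627) and with limma (0.0899). Library size scaling also split the calls over all genes as 1822 higher and 764 lower, in place of 1425 and 1146, and called ATR higher (adjusted p = 0.0239).

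ATR, the kinase that answers to stalled replication, had 42.8, 42.0 and 44.5 CPM in HepG2 miR-17 TuD, against 34.9, 40.1 and 40.3 CPM in NC TuD. Every decoy library was above every control, and the log2 fold change of 0.16 ± 0.06 did not pass (adjusted p = 0.0655), though it did without NC TuD replicate 3 (0.20, adjusted p = 0.0441) as well as with library size scaling. FANCB, a core complex subunit encoded on the X chromosome, had 6.93, 6.62 and 7.05 CPM in miR-17 TuD, against 5.98, 5.72 and 5.53 CPM in NC TuD, also without overlap (0.26 ± 0.13, adjusted p = 0.187). FANCF had 19.7, 19.6 and 19.3 CPM in miR-17 TuD, against 18.2, 18.7 and 18.8 CPM in NC TuD, a log2 fold change of 0.08 ± 0.08. These 3 were the members whose decoy libraries all lay above the controls (background 16.1%), USP1 was the 1 with all below (background 14.9%), and the arms of the other 27 overlapped.

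The members as a list did not lean either way in HepG2. The log2 fold change was below 0 for 16 of 31 and above 0 for 15, with 48.6% of all genes below 0, and the count below 0 was 14 with RLE scaling and 11 with library size scaling. Hepatocyte markers summed lower in the decoy arm of HepG2, as given above. Of the 10, edgeR called 6 lower and 2 higher, DESeq2 5 and 2, and limma 2 and none. The 5 epithelial markers summed to 3028 to 3324 CPM in miR-17 TuD, against 2732 to 2828 CPM in NC TuD, and all 5 were called higher by edgeR and DESeq2 and 2 by limma. The part of these markers in the members' values was not tested. The median size of change was 0.06 for the members and 0.11 for all genes. All 5 genes of the BRCA group were at or above 0. BARD1 stood at 0.14 ± 0.07, PALB2 at 0.11 ± 0.06, BRCA1 at 0.07 ± 0.05 and BRCA2 at 0.05 ± 0.07, with adjusted p of 0.197, 0.178, 0.393 and 0.705 by edgeR. BRCA2 turned below 0 with replicate 3 of miR-17 TuD (-0.018) or replicate 1 of NC TuD (-0.0033) left out. FANCE, a core complex subunit that contacts FANCD2, was the lowest at -0.18 ± 0.09 (adjusted p = 0.177), with 19.5, 14.7 and 16.7 CPM in miR-17 TuD, against 19.4, 17.5 and 20.7 CPM in NC TuD. Its arms overlapped, since miR-17 TuD replicate 1 lay among the controls, and without that library it was called (-0.30, adjusted p = 0.0426).

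Companion genes in HepG2 were called in both directions, where 10.7% of all tested genes were called higher and 8.58% lower. WDR48, which activates USP1, was lower like its partner (-0.18 ± 0.06), and the translesion polymerase gene POLH was higher (0.15 ± 0.06), the 2 calls among 19 other Fanconi and crosslink genes. Of 28 other recombination genes, RMI2, a subunit of the BLM complex, rose (0.17 ± 0.06) and RPA3, of the single-strand binding complex, fell (-0.19 ± 0.07). DESeq2 and limma called none of either list, and the replicate block also ended these 4 calls (adjusted p from 0.0742 to 0.0965). Of 16 checkpoint genes CDC25A (-0.22 ± 0.06) and CHEK2 (-0.22 ± 0.06) fell, both also with DESeq2 and 1 with limma. Of 12 end joining genes POLQ, the polymerase of microhomology joining, rose (0.27 ± 0.06), while LIG3 (-0.20 ± 0.06), XRCC5 (-0.11 ± 0.03) and XRCC4 (-0.34 ± 0.11) fell, where DESeq2 called 1 higher and 2 lower and limma 1 higher and none lower. Of 17 E2F and RB family genes 3 rose, namely FOXM1 (0.18 ± 0.05), E2F8 (0.25 ± 0.08) and RBL1 (0.19 ± 0.07), against 2 with DESeq2 and 1 with limma. No BRCA1-A or end-protection gene of 11 was called by edgeR, DESeq2 or limma, with 1 at an unadjusted p below 0.05.

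Of 44 replication and mitosis genes in HepG2, 4 rose and 6 fell, where 10.7% and 8.58% of all genes did. DESeq2 called 4 and 4 of the 44, and limma 2 and 0. At an unadjusted p below 0.05 limma had 4 higher and 5 lower. The median of the 44, -0.02, was near that of all genes (0). By edgeR, those with the smallest adjusted p were MKI67 (0.21 ± 0.04), the ribonucleotide reductase gene RRM2 (0.20 ± 0.04), the cyclin gene CCNE2 (0.41 ± 0.11) and the thymidine kinase gene TK1 (0.17 ± 0.04). All 4 were higher, and the 6 that fell are not named here. PCNA (0.01 ± 0.04) and E2F1 (0.04) did not pass, with adjusted p of 0.949 and 0.694 by edgeR. TGFBR2 (0.44 ± 0.04) and CDKN1A (0.40 ± 0.04) rose. Some calls were lost when 1 of the 6 libraries was left out, and the range of the log2 fold change over those fits follows each gene. Leaving out miR-17 TuD replicate 1 ended the calls of XRCC4 (-0.39 to -0.27), XRCC5 (-0.14 to -0.09), WDR48 (-0.22 to -0.13), POLH (0.12 to 0.18), RMI2 (0.14 to 0.18) and RPA3 (-0.22 to -0.14), and replicate 2 those of CHEK2 (-0.27 to -0.18), E2F8 (0.20 to 0.29), LIG3 (-0.23 to -0.16), XRCC5, POLH and RMI2. Replicate 3 ended those of POLH and RBL1 (0.07 to 0.25). Of the NC TuD libraries, replicate 1 ended those of XRCC4, XRCC5, WDR48, RMI2, RPA3 and RBL1, replicate 2 those of E2F8, LIG3, XRCC4, XRCC5, WDR48, POLH and RPA3, and replicate 3 those of POLH, RMI2 and RBL1. Those of CDC25A, FOXM1, POLQ, MKI67, RRM2, CCNE2 and TK1 were kept without each of them in turn.

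**Figure D3:**
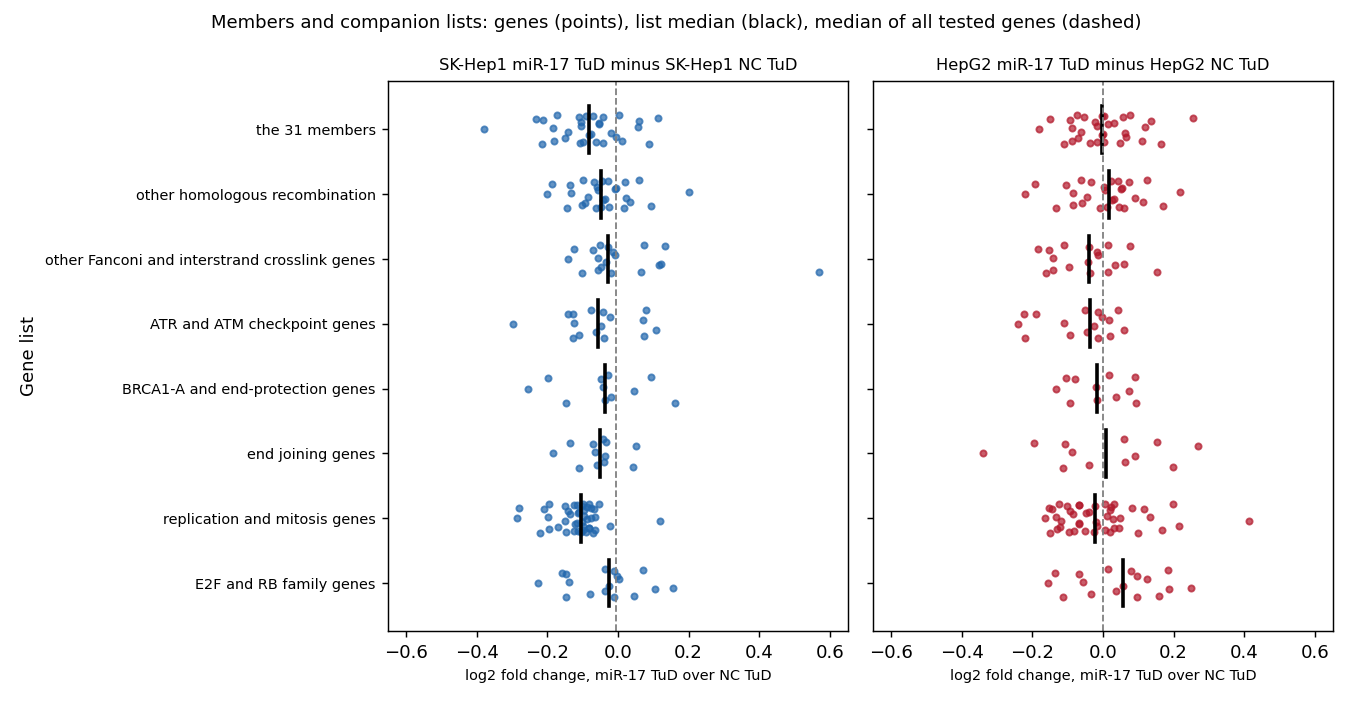
Each point is 1 gene, placed by its log2 fold change of miR-17 TuD over NC TuD, with SK-Hep1 on the left and HepG2 on the right. In SK-Hep1 the medians of the members (-0.08) and of the replication and mitosis genes (-0.10) lie left of the dashed median of all tested genes (-0.01), and in HepG2 both lie within 0.03 of it.

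By edgeR, the response to the decoy differed between the lines for BRCA2 and BRCA1. This was tested as the SK-Hep1 fold change minus the HepG2 fold change, which uses the same libraries as both single comparisons. The difference was -0.43 ± 0.12 for BRCA2 (adjusted p = 0.0248) and -0.25 ± 0.08 for BRCA1 (adjusted p = 0.0491) with edgeR on the log2 scale, where the minus sign marks the lower response of SK-Hep1. BRCA1 had 88.9, 86.2 and 93.0 CPM in HepG2 miR-17 TuD and 82.3, 89.0 and 84.6 CPM in HepG2 NC TuD, and BRCA2 had 40.7, 37.8 and 44.9 CPM and 36.9, 41.7 and 40.5 CPM in the same arms, so that both genes overlapped in HepG2 and did not in SK-Hep1. These were the 2 members called lower, with none higher, against 2.51% and 1.24% of all genes (3.75% in either direction). Library size scaling split the calls over all genes as 90 higher and 427 lower, in place of 165 and 335. DESeq2 and limma called no member, with 5 and 4 at an unadjusted p below 0.05, all lower, for which no share over all genes was computed. Both differences were also lost with the replicate block (adjusted p = 0.0754 for BRCA2 and 0.18 for BRCA1), and that of BRCA1 with RLE scaling (0.0583).

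All 5 genes of the BRCA group had a difference below 0, from -0.43 to -0.16. ATR (-0.26 ± 0.09, adjusted p = 0.102), BRIP1 (-0.23 ± 0.09), BARD1 (-0.24 ± 0.10), FANCD2 (-0.22 ± 0.09), RAD54B (-0.28 ± 0.13) and FANCI (-0.15 ± 0.07) had an unadjusted p below 0.05 by edgeR and did not pass adjustment. USP1, called in HepG2 and not in SK-Hep1, had a difference of 0.13 ± 0.07 that did not pass either (adjusted p = 0.378), so its response was not shown to differ between the lines. The median difference of the members was -0.07, against -0.01 for all genes, and 21 of 31 were below 0, against 52.6%. The BRCA1 difference was lost in 8 of 10 fits with 1 library left out (-0.29 to -0.21), the exceptions being miR-17 TuD replicate 2 and NC TuD replicate 2 of HepG2. That of BRCA2 (-0.51 to -0.35) was lost without HepG2 miR-17 TuD replicate 3, HepG2 NC TuD replicate 1, SK-Hep1 miR-17 TuD replicate 1 or either SK-Hep1 NC TuD library. Companion genes with a called difference were MKI67 (-0.38 ± 0.05), CCNE2 (-0.52 ± 0.14), TK1 (-0.24 ± 0.06) and PLK1 (-0.22 ± 0.07) of replication and mitosis, FOXM1 (-0.26 ± 0.07) and E2F8 (-0.39 ± 0.12) of the E2F group, and PRKDC (-0.20 ± 0.05), the kinase of end joining. In all 7 the response to the decoy was lower in SK-Hep1 than in HepG2. Except for MKI67, all these calls were lost with the replicate block (adjusted p from 0.0549 to 0.185) and with limma, and those of CCNE2, E2F8 and PLK1 also with DESeq2. Again except for MKI67, each call was lost with SK-Hep1 miR-17 TuD replicate 2 left out and again with SK-Hep1 NC TuD replicate 2 left out, within ranges of -0.63 to -0.40 for CCNE2, -0.28 to -0.20 for TK1, -0.24 to -0.19 for PLK1, -0.32 to -0.20 for FOXM1, -0.44 to -0.34 for E2F8 and -0.24 to -0.17 for PRKDC over the fits with 1 library left out. Further losses came without the other SK-Hep1 miR-17 TuD library (TK1, PLK1, E2F8 and PRKDC), the other SK-Hep1 NC TuD library (PLK1 and E2F8), miR-17 TuD replicates 1 (TK1, PLK1 and FOXM1), 2 (TK1, PLK1 and E2F8) and 3 (E2F8) of HepG2, and NC TuD replicates 1 (CCNE2, PLK1 and PRKDC) and 2 (TK1, PLK1 and E2F8) of HepG2.

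**Figure D4:**
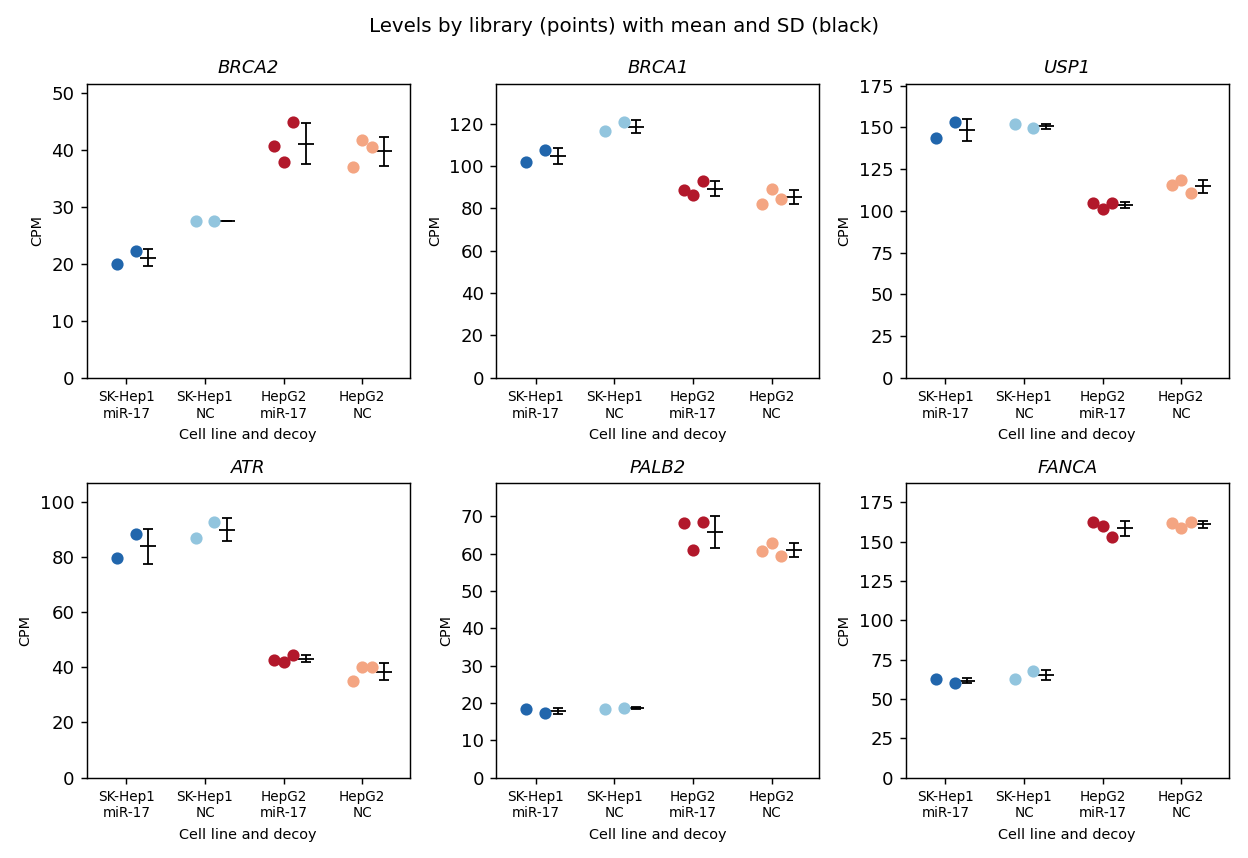
CPM of 6 members in each library (points, coloured by group) with the mean and SD of the group in black. BRCA2 lies at 20.0 and 22.2 CPM in SK-Hep1 miR-17 TuD, below every other library, PALB2 and FANCA are low in SK-Hep1 in both arms, and ATR is high there.

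The cell lines themselves differed far more than the decoy arms. Between the NC TuD groups 26 of 31 members were called, 16 higher in SK-Hep1 and 10 lower, but 86.7% of all genes were called in this comparison (43.9% higher and 42.8% lower), so the share of members called is close to that of all genes. The members differed less in size, with a median of 0.48 on the log2 scale against 0.86 over all genes, and 5 reached a 2-fold difference, as 45% of all genes did. RAD51C, RAD54L, FANCF, XRCC2 and FANCM were not called.

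PALB2 and FANCA were the members most strongly reduced in SK-Hep1. PALB2 had 18.3 and 18.7 CPM in SK-Hep1 NC TuD, against 60.6, 62.9 and 59.4 CPM in HepG2 NC TuD, a log2 fold change of -1.72 ± 0.08 (adjusted p = 1.58e-28 by edgeR). FANCA had 62.8 and 67.6 CPM in SK-Hep1 NC TuD, against 162, 159 and 163 CPM in HepG2 NC TuD (-1.30 ± 0.05). FANCL, the ligase subunit, had 19.6 and 18.1 CPM in SK-Hep1 NC TuD, against 30.4, 31.9 and 27.9 CPM in HepG2 NC TuD (-0.68 ± 0.09). No library of one line reached the range of the other for any of the 3. The largest increases were in FANCB, with 17.3 and 18.8 CPM in SK-Hep1 NC TuD, against 5.98, 5.72 and 5.53 CPM in HepG2 NC TuD (1.65 ± 0.12), and in ATR, with 87.0 and 92.8 CPM, against 34.9, 40.1 and 40.3 CPM (1.23 ± 0.06). BARD1 had 57.9 and 58.6 CPM in SK-Hep1 NC TuD, against 24.0, 27.7 and 26.0 CPM in HepG2 NC TuD (1.17 ± 0.07). Next came RAD54B, with 29.7 and 28.6 CPM in SK-Hep1 NC TuD, against 16.3, 16.4 and 16.8 CPM in HepG2 NC TuD (0.82 ± 0.09), and the resection nuclease gene EXO1 (0.81 ± 0.07), with 62.2 and 66.6 CPM in SK-Hep1 NC TuD, against 37.6, 37.9 and 35.1 CPM in HepG2 NC TuD. These 5 were higher in both SK-Hep1 libraries than in all 3 of HepG2.

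The lines differed in both directions in the BRCA group, the Fanconi genes, the end-processing genes and the kinases, and only upwards in SK-Hep1 among the called strand exchange genes (2 of 4) and RAD54 translocases (1 of 2). In the BRCA group BARD1, BRCA1 (0.48 ± 0.05) and BRIP1 (0.23 ± 0.07) were higher in SK-Hep1, and PALB2 and BRCA2 (-0.53 ± 0.08) lower. In the core complex FANCB, FANCE (0.56 ± 0.09) and FANCG (0.21 ± 0.07) were higher, and FANCA, FANCL and FANCC (-0.47 ± 0.09) lower. FANCD2 was lower (-0.62 ± 0.06), while its partner FANCI (0.32 ± 0.05) and USP1 (0.39 ± 0.05) were higher. FANCD2 had 52.1 and 54.0 CPM in SK-Hep1 NC TuD, against 76.5, 89.3 and 79.6 CPM in HepG2 NC TuD, and FANCI had 141 and 148 CPM, against 116, 121 and 110.0 CPM. Among end-processing genes BLM (0.57 ± 0.08), EXO1, NBN (0.55 ± 0.06) and RMI1 (0.29 ± 0.09), a BLM partner, were higher, and RBBP8 (-0.65 ± 0.07) and RAD50 (-0.28 ± 0.06) lower. The kinase gene ATM (-0.20 ± 0.05) and CHEK1, encoding CHK1 (-0.19 ± 0.06), were lower where ATR was higher. RAD51D (0.53 ± 0.09) and XRCC3 (0.21 ± 0.07) were higher among the strand exchange genes. The calls of XRCC3, CHEK1 and RMI1 were lost without HepG2 NC TuD replicate 2 (XRCC3 at 0.14 and CHEK1 at -0.13), SK-Hep1 NC TuD replicate 1 (CHEK1 at -0.13) or SK-Hep1 NC TuD replicate 2 (XRCC3 at 0.15 and RMI1 at 0.18). Exons of FANCA, FANCL, XRCC3, RAD50 and RAD54B overlap another gene, as given above.

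The remaining members were expressed at moderate levels in every library, given here as ranges over both arms (4 libraries of SK-Hep1 and 6 of HepG2). ATM, the kinase that answers to broken ends, had 92.9 to 104 CPM in SK-Hep1 and 113 to 124 CPM in HepG2, and CHEK1, encoding the kinase below ATR, had 57.9 to 64.4 CPM in SK-Hep1 and 65.2 to 76.4 CPM in HepG2. The resection factor gene RBBP8 had 35.9 to 39.8 CPM in SK-Hep1 and 53.6 to 65.6 CPM in HepG2. All 3 were lower in every SK-Hep1 library than in any of HepG2. In the MRN complex, NBN had 89.1 to 94.2 CPM in SK-Hep1 and 59.4 to 65.6 CPM in HepG2, and RAD50 had 50.5 to 59.0 CPM in SK-Hep1 and 66.6 to 74.7 CPM in HepG2. The helicase gene BLM had 32.7 to 37.0 CPM in SK-Hep1 and 22.4 to 25.5 CPM in HepG2, and RMI1, which works with it to resolve joined DNA, had 25.1 to 29.8 CPM in SK-Hep1 and 20.7 to 25.7 CPM in HepG2. The ranges of NBN, RAD50 and BLM did not meet, with NBN and BLM higher and RAD50 lower in SK-Hep1, and those of RMI1 overlapped. Among genes with no called difference between the lines, RAD51C, a partner of XRCC3, had 31.8 to 38.2 CPM in SK-Hep1 and 33.2 to 38.5 CPM in HepG2, XRCC2, a partner of RAD51D, had 24.1 to 26.7 CPM in SK-Hep1 and 24.4 to 31.3 CPM in HepG2, and RAD54L, a translocase of strand exchange, had 56.3 to 63.2 CPM in SK-Hep1 and 48.7 to 58.8 CPM in HepG2. All 3 ranges overlapped. In the Fanconi core, FANCC had 19.9 to 21.5 CPM in SK-Hep1 and 24.1 to 29.9 CPM in HepG2, FANCG had 48.7 to 53.8 CPM in SK-Hep1 and 44.3 to 51.1 CPM in HepG2, and FANCM had 13.0 to 16.6 CPM in SK-Hep1 and 13.7 to 16.8 CPM in HepG2. FANCC was lower in every SK-Hep1 library, and FANCG and FANCM overlapped.

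The miR-17 TuD groups, which share no library with the NC TuD groups, gave the same picture. Of 31 members 12 were higher in SK-Hep1 and 10 lower, with 87.3% of all genes called (44.1% higher and 43.1% lower), and all 22 had been called in the same direction between the NC TuD groups. BRIP1, RMI1, FANCG and XRCC3 were called between the NC TuD groups and not here, and 5 members were called in neither. Without SK-Hep1 miR-17 TuD replicate 1 the call of CHEK1 was lost here (-0.12). For instance, PALB2 had 18.4 and 17.4 CPM in SK-Hep1 miR-17 TuD, against 68.2, 60.9 and 68.5 CPM in HepG2 miR-17 TuD, a log2 fold change of -1.88 ± 0.08. FANCA had 62.9 and 60.4 CPM, against 163, 159.8 and 153 CPM (-1.36 ± 0.05), and ATR 79.5 and 88.4 CPM, against 42.8, 42.0 and 44.5 CPM (0.96 ± 0.06). Across the 31 genes the fold changes of the 2 arms had a Pearson correlation of 0.979, a description only, since genes are not independent and each line is common to both arms. BRCA2 departed furthest, at -0.96 ± 0.08 between the miR-17 TuD groups and -0.53 ± 0.08 between the NC TuD groups, which is the difference of responses given above.

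**Figure D5:**
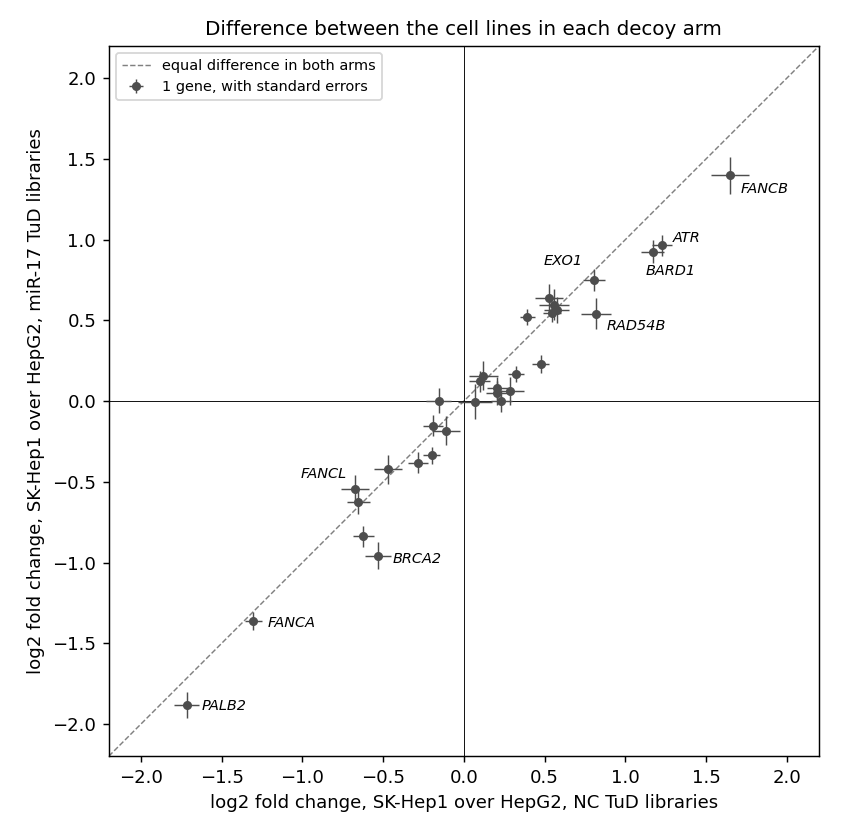
Each point is 1 member, placed by its log2 fold change of SK-Hep1 over HepG2 in NC TuD (horizontal) and in miR-17 TuD (vertical), with standard errors. The points follow the dashed line of equal difference from PALB2 (-1.72 and -1.88) to FANCB (1.65 and 1.40), and BRCA2 lies below it.

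E2F cores were present in some member promoters. Of the 28 members with a RefSeq promoter (GRCh38.p14, 250 bases before to 50 after the start), 14 (50%) held an E2F core, TTCCCGC or TTGGCGC on either strand, against 14.6% of the 10839 promoters of tested genes. The cell cycle homology motif TTTGAA was in 10.7%, against 9.86%, TTCGAA in none, against 1.72%, and CCAAT in 42.9%, against 36.4%. Some CCAAT matches overlap an E2F core, as in USP1. The promoters of the members called under the decoy, USP1 and BRCA2, are printed with those of BRIP1 and FANCA, 5′ to 3′ on the gene's strand with the E2F core in capitals.
USP1, chr1:62436145-62436444, plus strand: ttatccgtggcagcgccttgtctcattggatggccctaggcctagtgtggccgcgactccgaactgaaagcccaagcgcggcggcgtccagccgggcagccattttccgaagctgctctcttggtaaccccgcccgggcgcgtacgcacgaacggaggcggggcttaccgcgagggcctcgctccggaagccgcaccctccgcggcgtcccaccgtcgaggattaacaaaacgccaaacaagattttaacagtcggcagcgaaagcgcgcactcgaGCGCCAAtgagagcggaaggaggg
BRCA2, chr13:32315258-32315557, plus strand: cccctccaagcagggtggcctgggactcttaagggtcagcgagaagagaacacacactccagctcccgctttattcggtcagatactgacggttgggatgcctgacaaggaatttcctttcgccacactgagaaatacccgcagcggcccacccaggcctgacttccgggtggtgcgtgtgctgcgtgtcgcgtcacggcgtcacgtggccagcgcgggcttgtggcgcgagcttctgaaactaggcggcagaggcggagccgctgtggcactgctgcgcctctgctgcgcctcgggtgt
BRIP1, chr17:61863479-61863778, minus strand: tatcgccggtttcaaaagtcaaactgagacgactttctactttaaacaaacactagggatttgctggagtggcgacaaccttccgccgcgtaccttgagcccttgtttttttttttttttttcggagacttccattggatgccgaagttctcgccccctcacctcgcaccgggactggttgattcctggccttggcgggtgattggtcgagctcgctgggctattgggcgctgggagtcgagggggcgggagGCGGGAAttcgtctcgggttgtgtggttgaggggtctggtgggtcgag
FANCA, chr16:89816598-89816897, minus strand: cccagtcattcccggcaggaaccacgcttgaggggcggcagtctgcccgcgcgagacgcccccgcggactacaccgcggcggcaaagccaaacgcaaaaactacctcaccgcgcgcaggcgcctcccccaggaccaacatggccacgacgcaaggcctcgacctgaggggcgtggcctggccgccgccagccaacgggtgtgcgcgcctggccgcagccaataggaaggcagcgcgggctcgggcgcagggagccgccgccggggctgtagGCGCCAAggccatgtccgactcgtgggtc
BRCA2 had no match in this window. In SK-Hep1, 12 of the 14 members with a core and 10 of the 14 without had a log2 fold change below 0 under the decoy, with medians of -0.08 and -0.07, and the shares over all tested genes were 57.1% and 51.5%. In HepG2, 10 of 14 with a core and 5 of 14 without lay below 0, with medians of -0.04 and 0.05, against 53% and 48.2% of tested genes. Split by seed match instead, 7 of 8 members with a site and 18 of 23 without lay below 0 in SK-Hep1, against 49.6% and 53.2% of tested genes. In HepG2 4 of 8 with a site and 12 of 23 without lay below 0, against 45.3% and 50.3%. These splits are given without a test.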

How the data were processed

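The authors deposited raw counts per gene, 1 file a library, and a matrix of log2 values. Per the submitters' processing notes, STAR and HTSeq 0.5.4p5 were used with hg19, whereas the series text names other tools and a mouse genome; the symbols are human. Libraries were made from 150 ng of total RNA and read as 50 bp pairs, per the labels' protocols. The 5 HTSeq summary entries were left out (no_feature 11.6% to 14.1% of a column, not uniquely aligned 4.47% to 5.04%, not aligned 2.43% to 2.87%, ambiguous 0.584% to 0.619%).

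Counts were tested with edgeR 4.0.16 (R 4.3.3) by its quasi-likelihood test, after filterByExpr and TMM, in 1 fit of all 10 libraries with 4 group means. Tests were two-sided, with Benjamini-Hochberg adjustment over 13349 genes and a threshold of 0.05. SE is the log2 fold change over the root of F, and CPM is scaled by TMM. Alternatives were RLE or library size scaling, no filter, DESeq2 1.42.0, only the groups compared, a replicate block, limma 3.58.1 on the deposited log2 values (made with limma voom, per the series text), and each library left out. No pair of replicates agreed within sampling noise (chi-square per degree of freedom 1.39 to 3.59). The edgeR script was checked on simulated counts, where recovery was required only for changes of 2-fold or more. Every decoy response of a member was smaller (at most 0.38 on the log2 scale), so that requirement does not cover them. Smaller changes were also simulated, and their recovery is not given here. A count of 0 allows up to 3 counts, for counting error only.

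Members and lists were chosen with earlier results of these data known. All 31 members are accounted for; per-library values are given for those called in a decoy comparison and for the 8 with the largest difference between NC TuD groups, with further members beside them. Of companion lists, up to 4 called genes per comparison with the smallest adjusted p are named, except between the miR-17 TuD groups, where none is, plus PCNA, MKI67, E2F1, CDKN1A and TGFBR2. A further gene of that rule and the target site sequences are not reported here. Symbols were matched to GENCODE 29 directly (17783) or through a RefSeq synonym (1199), and 233 were not matched.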

Additional observations from a re-analysis of the deposited data

Results flagged for a closer look

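The following responses differed between the lines in the edgeR test of the difference itself, the SK-Hep1 log2 fold change minus the HepG2 log2 fold change, at an adjusted p below 0.05. All but that of MKI67 were lost with the replicate block (adjusted p from 0.0549 to 0.185) and with limma on the deposited matrix, and those of BRCA2, BRCA1, CCNE2, E2F8 and PLK1 also with DESeq2. Among the members these were BRCA2 at -0.43 ± 0.12 (adjusted p = 0.0248) and BRCA1 at -0.25 ± 0.08 (adjusted p = 0.0491). The SK-Hep1 and HepG2 fold changes were -0.38 and 0.05 for BRCA2, and -0.18 and 0.07 for BRCA1. Among companion genes the difference was -0.38 ± 0.05 for MKI67 (adjusted p = 1.52e-06), -0.52 ± 0.14 for CCNE2 (0.0152), -0.24 ± 0.06 for TK1 (0.0228), -0.22 ± 0.07 for PLK1 (0.0402), -0.26 ± 0.07 for FOXM1 (0.0139), -0.39 ± 0.12 for E2F8 (0.0394) and -0.20 ± 0.05 for PRKDC (0.0199). CDKN1A, named in any case, was at -0.24 ± 0.06 (0.00604), with log2 fold changes of 0.16 in SK-Hep1 and 0.40 in HepG2, and its difference was lost without SK-Hep1 miR-17 TuD replicate 2 (-0.27 to -0.22 over the fits with 1 library left out). All of these responses to the decoy were lower in SK-Hep1 than in HepG2.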

How the results depend on the processing

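Between lines, the count of members called stayed within 1.5 times of 26 (NC TuD) and 22 (miR-17 TuD) under every alternative, although single calls such as that of CHEK1 between the miR-17 TuD groups were lost with library size scaling (adjusted p = 0.0589), DESeq2 (0.0539) and limma (0.0748). In HepG2 the count of members called, 1, became 0 with the replicate block and 0 to 2 with 1 library left out, and the count over all genes, 2571, became 956 with limma on the deposited matrix. In SK-Hep1 the member count of 1 became 0 with DESeq2, limma or the replicate block, 3 with only its own groups in the fit, and 0 without each library in turn (0 to 0). Over all genes, 116 became 274 with only its own groups, 58 with the block and 49 to 70 with 1 library left out. For the difference of responses, 2 members became 1 with RLE scaling, 0 with DESeq2, limma or the block, and 0 to 2 with 1 library left out, and 500 genes became 227 with the block, 219 with limma and 266 to 613 with 1 library left out. The cause of these changes was not tested, beyond the fewer samples of the fits that leave 1 out. Leaving an arm of SK-Hep1 with 1 library assumes that this library varies like the other groups.

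Among the genes followed singly, values near 0 changed sign with 1 library left out in BRCA2 (-0.018 to 0.11), PCNA (-0.024 to 0.029) and E2F1 (-0.017 to 0.077) in HepG2, and in USP1 (-0.069 to 0.026) in SK-Hep1. The count of members below 0 in HepG2 was 13 to 19 with 1 library left out, so further members changed sign there. In HepG2 same-numbered replicates of the arms did not deviate together (correlations 0.0552, -0.338 and -0.308). The highest correlations there were of miR-17 TuD replicate 3 with NC TuD replicate 2 (0.379) and of replicate 2 with replicate 3 (0.296). In SK-Hep1 the value was -0.0685, but with 2 libraries per arm the deviations mirror each other, so this check says little. The replicate block uses these numbers, although no pairing by them was seen. The block left BRCA2 in SK-Hep1 at -0.38 and USP1 in HepG2 at -0.15. Counting 8mer and 7mer-m8 sites alone left 6 members with a site. No scaling moved the median of all genes by over 0.1. With 2 libraries per arm the median SE of a member in SK-Hep1 was 0.0766, beside a median size of change of 0.0905. In HepG2, with 3 per arm, these were 0.0648 and 0.0615. Differences of the size seen for most members therefore cannot be resolved in either line.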

Other observations

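Genes around the members also differed between SK-Hep1 NC TuD and HepG2 NC TuD, where 86.7% of all genes were called by edgeR. Values are log2 fold changes of SK-Hep1 over HepG2, for the called genes of each list with the smallest adjusted p. Of 28 other recombination genes 15 were higher in SK-Hep1 and 8 lower, led by RMI2 (-2.88), FIGNL1 (1.65), RPA1 (0.94) and NABP2 (1.14). RMI2 belongs to the BLM complex, and RPA1 and NABP2 bind single-stranded DNA. Of 19 other Fanconi and crosslink genes 8 were higher and 4 lower, among them the nuclease subunit gene ERCC1 and the translesion polymerase genes POLH, REV3L and REV1, as ERCC1 (2.15), POLH (1.40), REV3L (-1.23) and REV1 (-1.24). Checkpoint genes had 7 higher and 7 lower of 16, with CDC25A (-1.02), CLSPN (0.67), TP53BP1 (0.61) and MDC1 (-0.45). BRCA1-A and end-protection genes had 4 higher and 7 lower of 11, with BRE (0.73), PARP1 (0.42), RNF168 (-0.96) and RNF8 (-0.64).

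End joining genes were higher in SK-Hep1 in 7 of 12 and lower in 3, with LIG4 (1.58), XRCC6 (0.48), PRKDC (0.45) and DCLRE1C (1.19). Replication and mitosis genes were higher in 29 of 44 and lower in 12, with CDC20 (1.61), MKI67 (1.29), TK1 (1.26) and GINS4 (1.44), and PCNA was lower (-0.73). E2F and RB family genes had 7 higher and 9 lower of 17, with E2F7 (2.27), FOXM1 (1.32), TFDP1 (0.78) and E2F6 (-1.29), and E2F1 was lower (-0.49). CDKN1A was higher (1.72) and TGFBR2 lower (-1.39).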
